A study of Mus musculus with 6 samples.

Results

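The genes of LIF, OSM and gp130 signalling were taken as the 7 table rows with the symbols Lif, Osm, Il6ra, Il6st, Stat3, Jak2 and Tyk2, of 14868 genes in all. Each of the 7 had a row, and each passed the filter on low values. They were compared between Th2 cultures of wild-type (WT) CD4+ T cells and of CD4+ T cells without Ikzf4 (Ikzf4-/-), which encodes Eos, a zinc finger protein of the Ikaros family. The strain background of all 6 libraries, 3 per genotype, was C57BL/6J. Naïve cells of both genotypes were kept for 72 h on plates coated with anti-CD3 (5 µg/mL) and anti-CD28 (2 µg/mL), with IL-4 (10 ng/mL) and a blocking antibody to interferon gamma (10 µg/mL) in the medium. The labels used here give neither the age and sex of the mice nor the design of the Ikzf4 allele, and they do not say whether replicates came from separate animals or cultures. The p-values therefore measure only the spread between these libraries, which may be technical.

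LIF and OSM are secreted cytokines of the IL-6 family, and activated T cells are a known source of both. Cytokines of this family signal through receptor complexes that share gp130, the product of Il6st. Receptor-bound JAK kinases phosphorylate STAT3, which enters the nucleus and switches on target genes, among them Socs3, whose product inhibits the receptor complex. In CD4+ T cells, IL-6 acting through STAT3 is best known for favouring Th17 and follicular helper fates, and STAT5 downstream of IL-2 is a known activator of Osm.

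Lif and Osm lie side by side on chromosome 11 of GRCm38, in the same orientation. Osm (ENSMUSG00000058755) spans 4236420 to 4241026 and Lif (ENSMUSG00000034394) spans 4257557 to 4272514, both on the plus strand, with 16530 bp and no annotated gene between them. Stat3 (ENSMUSG00000004040) lies on the minus strand of the same chromosome at 100885098 to 100939540. The promoters of Lif and Stat3 are shown because these members were called lower in Ikzf4-/- cells. Each runs from 250 bases before to 50 bases after the RefSeq start on GRCm38.p6, 5′ to 3′, at chr11:4257318-4257617 on the plus strand for Lif and chr11:100939491-100939790 on the minus strand for Stat3. Capitals mark matches to the motifs described next.
Lif: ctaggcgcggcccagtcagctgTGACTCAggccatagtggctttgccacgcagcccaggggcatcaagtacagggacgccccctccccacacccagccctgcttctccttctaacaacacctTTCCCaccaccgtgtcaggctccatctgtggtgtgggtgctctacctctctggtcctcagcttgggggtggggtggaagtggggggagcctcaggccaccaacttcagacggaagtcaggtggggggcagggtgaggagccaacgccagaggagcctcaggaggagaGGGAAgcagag
Stat3: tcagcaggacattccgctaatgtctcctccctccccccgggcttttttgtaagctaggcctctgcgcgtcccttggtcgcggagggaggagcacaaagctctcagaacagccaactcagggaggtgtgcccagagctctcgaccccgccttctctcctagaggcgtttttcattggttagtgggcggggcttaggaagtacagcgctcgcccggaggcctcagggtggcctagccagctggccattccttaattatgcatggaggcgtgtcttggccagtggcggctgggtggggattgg

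RefSeq promoters were found for 6 of the 7 members, all but Osm. They were searched on both strands for TTCNNNGAA (the core bound by STAT proteins), for the same STAT core with 1 more base in its middle, for TGANTCA (AP-1) and for GGGAA (the Ikaros-family core, which can also lie inside a STAT match). The Lif promoter held 1 AP-1 match, TGACTCA, which began at base -228 against the RefSeq start. It also held 2 Ikaros-family core matches, beginning at base -128 on the minus strand (TTCCC as printed) and at base 40 on the plus strand. Il6st held 2 Ikaros-family core matches, Il6ra and Jak2 held 1 each, and Stat3 and Tyk2 held 0. No STAT match of either spacing was in the 6 windows. Of 32851 RefSeq promoters of this length, 8.30% held the STAT core, 6.95% the wider STAT spacing, 7.81% the AP-1 motif and 62.7% the Ikaros-family core. These matches describe the letters in the windows only.

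The steps between normalized values gave an estimate of 34701390 to 40604346 reads per library, less certain for Ikzf4-/- replicates 1 and 3, where 1 step was close to 1. Spearman correlations between replicates across genes, which are not independent replicates, were 0.992 to 0.995. WT replicate 1 stood apart on the first principal component (40.2% of the variance), at -41.3 against -12.5 and -5.26 for the other WT libraries. Ikzf4-/- replicates 1, 2 and 3 lay at 11.1, 17.1 and 30.85, so this component also separated the genotypes. Ikzf4 checked the labels, with normalized read counts of 756, 499.6 and 483 under the WT label against 25.2, 10.5 and 38.2 under the Ikzf4-/- label. Defining CD4 T cell markers were present in every library (Cd3d, Cd3e, Cd3g, Cd4 and Cd28, summing to 62983 to 64630 in WT and 62803 to 66245 in Ikzf4-/- cells). Other cells can make LIF and OSM, so their markers were examined. Of 5 myeloid markers (Lyz2, Csf1r, Itgam, Cd14 and Adgre1), 0 had a row. For B cells, 2 of 4 markers had a row and summed to 51.1 to 83.6 in WT and 58.6 to 90.4 in Ikzf4-/- cells, and Ms4a1 had none. For mast cells or basophils, 1 of 4 had a row (Mcpt8, at 2.91 to 33.0 and 0 to 28.1), and Cpa3, Ms4a2 and Fcer1a had none. For dendritic cells 2 of 3 had a row (79.8 to 103.8 and 102.6 to 130.6), for NK cells 1 of 3 (149 to 299 and 165 to 284), and for CD8 T cells 2 of 2 (236 to 423 and 232 to 374). The sums of the 2 genotypes overlapped for each of these lists with a row. The Th2 list differed: its 5 markers (Gata3, Il4, Il5, Il13 and Ccr8) all had a row and summed to 16033 to 17810 in WT and 11885 to 13806 in Ikzf4-/- cells, with no overlap. The largest part of that sum, Gata3, overlapped by itself (7594 in WT replicate 3, 7629 in Ikzf4-/- replicate 1). Gata3 (log2 fold change -0.24, limma adjusted p = 0.146) and Il5 (-1.24, 0.0529) were not called. Il4 (-0.87, 0.0144), Il13 (-0.82, 0.0450) and Ccr8 (-0.41, 0.0490) were called lower. This lower Th2 marker sum moved with genotype alongside every result that follows, and its part in them was not tested. In such bulk libraries, fewer cells making a transcript and less transcript per cell cannot be told apart.

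The 2 cytokine genes had the lowest ratios among the 7. Lif RNA in Ikzf4-/- cells was at 0.481 of its WT level and Osm RNA at 0.619, and Stat3 fell to 0.806 of its WT level. The shared receptor chain gene Il6st did not pass the test, nor did the IL-6 receptor gene Il6ra or the kinase genes Jak2 and Tyk2. Of the 7 members, 3 were called lower and 0 higher (limma, Benjamini-Hochberg adjusted p under 0.05 over all 14864 genes tested), against a background of 1.77% of genes called in either direction and 1.20% called lower. The median log2 fold change was -0.24 over the 7 members and 0.00479 over all genes tested. Without Ikzf4-/- replicate 3 the count of called members was 1 (Osm). In the authors' deposited table Lif, Osm and Stat3 were under an adjusted p of 0.05, against 6.34% of the genes with an adjusted p there. For these 3 members every WT library was above every Ikzf4-/- library, and the genotypes were likewise separate in one direction or the other for 23.1% of all genes tested (12.2% with Ikzf4-/- lower).

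Lif encodes leukaemia inhibitory factor, which binds a receptor made of the LIF receptor chain and gp130. Replicates 1, 2 and 3 of WT cells held 13666, 11650 and 9908 normalized reads of Lif, and those of Ikzf4-/- cells held 4838, 6857 and 5304. The lowest WT library was above the highest Ikzf4-/- library. The mean fell from 11741 ± 1880 to 5667 ± 1057 (SD, n = 3 each), which is -1.05 on the log2 scale (SE 0.13) and a 95% interval from -1.34 to -0.77 (limma adjusted p = 0.00737). The log2 fold change ran from -1.20 to -0.94 in the 6 fits that each left out 1 library. Lif was called in 5 of these fits and not without Ikzf4-/- replicate 3 (limma adjusted p = 0.0510). Without WT replicate 1, which had the highest Lif value, the log2 fold change was -0.94 (limma adjusted p = 0.00164).

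Osm encodes oncostatin M, which signals through gp130 paired with the OSM receptor chain. WT libraries, in the same replicate order, held 878, 717 and 774 normalized reads of Osm, against 486, 459.6 and 516 for Ikzf4-/-, again with no overlap. The mean fell from 790 ± 81.7 to 487 ± 28.4 (SD, n = 3 each), which is -0.69 on the log2 scale (SE 0.09) and a 95% interval from -0.90 to -0.48 (limma adjusted p = 0.0131). Osm kept its call whichever library was left out, with log2 fold changes from -0.76 to -0.61 and limma adjusted p-values up to 0.0451. Without WT replicate 1 it was -0.61 (limma adjusted p = 0.00802). WT replicate 1 was the highest library for both cytokine genes. The lowest Ikzf4-/- library was replicate 1 for Lif and replicate 2 for Osm.

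Whether the 2 cytokine genes fell by different amounts was tested on their ratio. The log2 of Lif over Osm was 3.96, 4.02 and 3.68 for WT and 3.31, 3.90 and 3.36 for Ikzf4-/- libraries, and the genotypes overlapped. The mean ratio was lower in Ikzf4-/- cells by a log2 difference of -0.36 (from 3.89 ± 0.18 to 3.52 ± 0.32, SD, n = 3 each) (two-sided exact permutation p = 0.20, where the smallest p that 3 against 3 allows is 0.10). At this number of libraries the test could not pass 0.05, so whether Lif fell more than Osm was not settled either way.

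**Figure D1:**
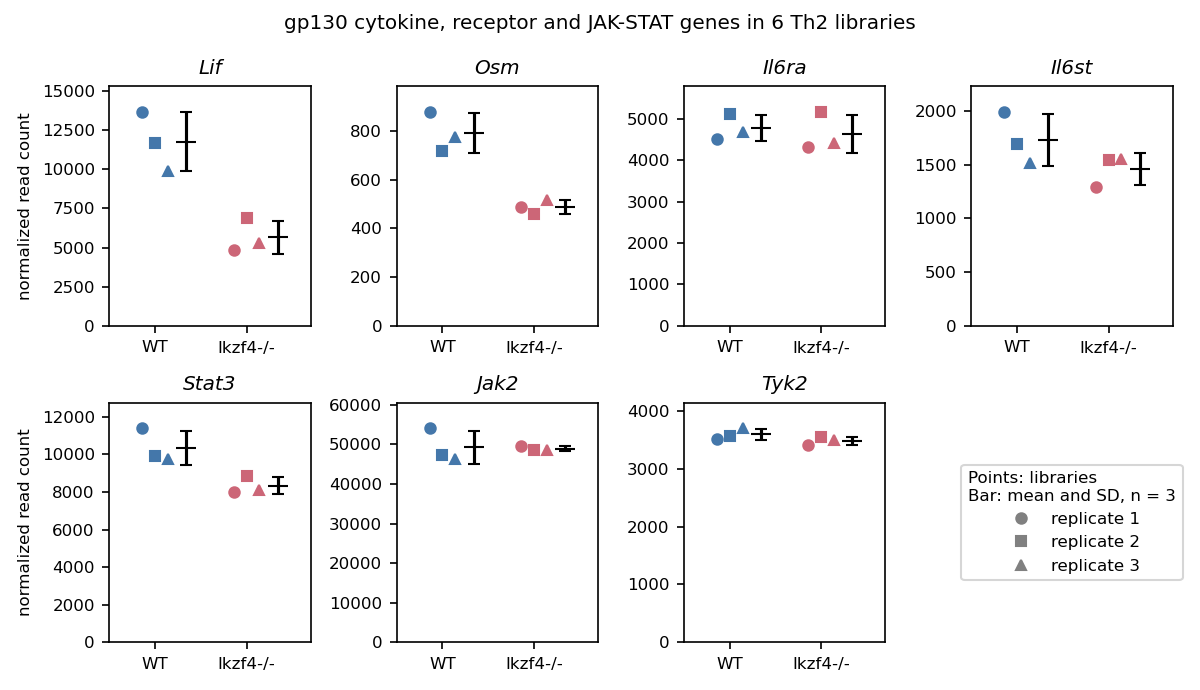
Normalized read count (vertical axes, each from 0) of the 7 genes in WT (blue) and Ikzf4-/- (red) libraries, with marker shapes for replicate numbers and the mean with SD (n = 3) beside them. For Lif, Osm and Stat3 the lowest WT library lies above the highest Ikzf4-/- library, and for the other 4 genes the genotypes overlap.

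The receptor chains did not pass the test. Il6st encodes gp130, the chain shared by the family, and lies at 112464070 to 112510086 on the plus strand of chromosome 13. WT libraries held 1992, 1688 and 1515 normalized reads of Il6st, against 1291, 1540.0 and 1549 for Ikzf4-/-. WT replicate 3 lay below Ikzf4-/- replicates 2 and 3, so the genotypes overlapped. The log2 fold change was -0.24 with an SE of 0.10 (unadjusted p = 0.0377, limma adjusted p = 0.244), and it was -0.14 without WT replicate 1 and -0.33 without WT replicate 3. Il6st was called in 0 of the 6 fits that left out 1 library.

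Il6ra encodes the chain that binds IL-6 itself and lies at 89864059 to 89913196 on the minus strand of chromosome 3. WT libraries held 4507, 5118 and 4674 normalized reads of Il6ra, against 4321, 5166 and 4411 for Ikzf4-/-. Replicate 2 was the highest library in both genotypes, and the groups overlapped. The log2 fold change was -0.04, with a 95% interval from -0.20 to 0.12 (limma adjusted p = 0.806). A fall to the level seen for Lif or Osm lies outside that interval. The annotation places Gm42809 on the opposite strand, sharing 242 exon bases with Il6ra, and since the use of strand in counting is not given in the sources used here, reads of these bases cannot be assigned.

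Stat3 encodes the transcription factor that gp130 complexes activate. WT libraries held 11394, 9924 and 9742 normalized reads of Stat3, against 8021, 8851 and 8128 for Ikzf4-/-, with no overlap. The mean fell from 10353 ± 906 to 8333 ± 451 (SD, n = 3 each), which is -0.31 on the log2 scale (SE 0.06) and a 95% interval from -0.45 to -0.17 (limma adjusted p = 0.0436). Stat3 was called in 2 of the 6 fits that left out 1 library, with log2 fold changes from -0.36 to -0.24. The limma adjusted p was 0.0722 without WT replicate 2, and 0.123, 0.0641 and 0.155 without Ikzf4-/- replicates 1, 2 and 3. In these fits the calls over all genes also fell, from 263 to 75, 48, 112 and 20 in the same order. Without WT replicate 1, the highest library, the log2 fold change was -0.24 and the call was kept (limma adjusted p = 0.0400). The 3′ end of Stat3 meets that of Stat5a on the opposite strand, and 72 of the 9527 exon bases of Stat3 are shared. For Stat5a, the neighbouring STAT gene, the log2 fold change was 0.08 (limma adjusted p = 0.612).

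Jak2 and Tyk2 encode kinases that, with JAK1, can act at gp130. Jak2, at 29251828 to 29313080 on the plus strand of chromosome 19, was at 54046, 47243 and 46287 for WT against 49578, 48600 and 48549 for Ikzf4-/-. The WT libraries spanned the Ikzf4-/- range on both sides, and the log2 fold change was -0.00494 with a 95% interval from -0.13 to 0.12 (limma adjusted p = 0.977). Its sign turned with the scaling, at 0.03 with quantile scaling and 0.02 with equal library totals. Tyk2, at 21104068 to 21131243 on the minus strand of chromosome 9, was at 3506, 3570 and 3698 for WT against 3408, 3543 and 3500.1 for Ikzf4-/-. These also overlapped, at a log2 fold change of -0.04, with a 95% interval from -0.15 to 0.06 (limma adjusted p = 0.683). Tyk2 shares 554 exon bases with 1700084C06Rik on the opposite strand. The intervals of both kinase genes exclude a fall as large as that fitted for Stat3, although Stat3 itself was not tested against them.

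**Figure D2:**
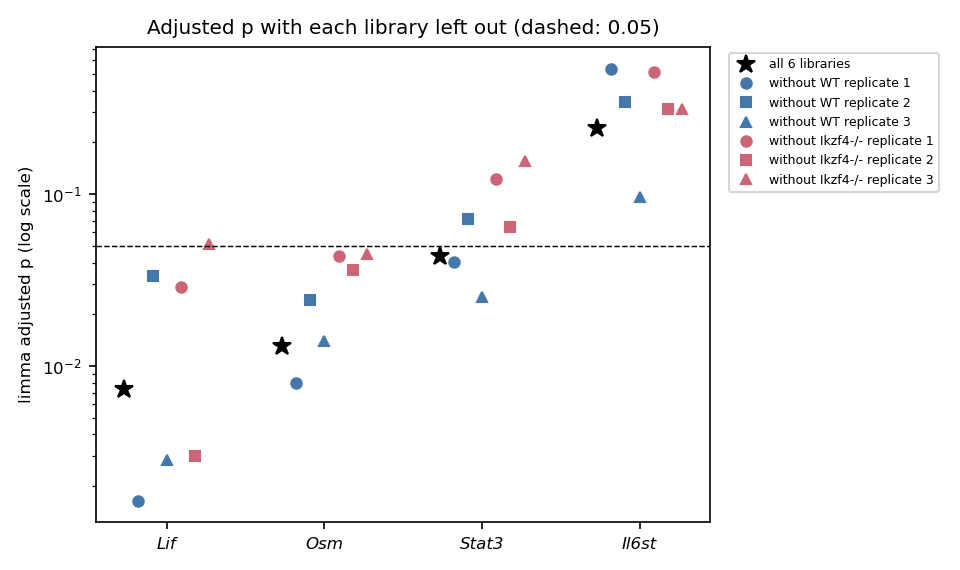
Limma adjusted p (vertical axis, log scale) for Lif, Osm, Stat3 and Il6st on all 6 libraries (star) and with each library left out (blue, a WT library; red, an Ikzf4-/- library; shapes for replicate numbers). Osm stays below the dashed line at 0.05 in each of the 6 fits, Lif in 5 and Stat3 in 2, and Il6st lies above it throughout.

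Levels were compared between genes per kilobase of annotated exon. In WT cells Jak2 had the highest level per kilobase, 9780 ± 841 (SD, n = 3), and ranked 159 of 14827 genes with an exon length (mean of all 6 libraries). Lif followed at 2699 ± 432 per kilobase, rank 1037, above 93.0% of genes. Stat3 was at 1087 ± 95.1, Il6ra at 552 ± 36.5, Tyk2 at 523 ± 14.2, Osm at 348 ± 35.96 and Il6st, the lowest, at 156 ± 21.7 per kilobase (SD, n = 3 each). In Ikzf4-/- cells the order was the same, with Lif at 1303 ± 243, Osm at 215 ± 12.5 and Il6st at 132 ± 13.2 per kilobase. In both genotypes only Il6ra and Tyk2 overlapped among neighbours in this order. Exon length here is the union over annotated transcripts, so the level of a gene that uses short isoforms is understated.

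The other genes of the pathway were taken from lists of 51 genes, of which 40 had a row, and 8 were called lower and 1 higher, or 22.5% of the 40 (background 1.20% lower and 0.572% higher). Their median log2 fold change was -0.09. Of all 14864 genes tested, 2687 were at an unadjusted p under 0.05. In the authors' deposited table, 6.34% of the 12849 genes with an adjusted p there were called. The counts of each list below stand against these shares. In the fits that left out 1 library the count of 9 became 11 without WT replicate 1, 12 without WT replicate 3, 2 without WT replicate 2, 1 without Ikzf4-/- replicate 1, 3 without Ikzf4-/- replicate 2 and 2 without Ikzf4-/- replicate 3. Among the other family ligands, 3 of 9 had a row and 0 were called (limma; 0 at an unadjusted p under 0.05, 0 in the authors' deposited table). Clcf1, which encodes cardiotrophin-like cytokine, was at 582 ± 67.7 in WT and 606 ± 63.5 in Ikzf4-/- cells (SD, n = 3 each; log2 fold change 0.06). Ebi3, whose product is a subunit of IL-27, was at 129 ± 20.4 and 159.7 ± 34.1 (SD, n = 3 each), with a fitted log2 difference of 0.30 (limma adjusted p = 0.454). Cntf went the other way at low values, with 34.1, 18.9 and 18.4 for WT against 17.1, 14.7 and 12.1 for Ikzf4-/-. Its genotypes did not overlap (log2 fold change -0.62, limma adjusted p = 0.417). Il6, Il11, Il27, Ctf1 and Il31, without a row, were not analysed here.

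Of 8 receptor and sheddase genes, 4 had a row and 0 were called (limma; 1, Adam10, at an unadjusted p under 0.05, and 0 in the authors' deposited table). Lifr and Osmr, the ligand-specific chains for LIF and OSM, were without a row and not analysed here, like Cntfr and Il31ra. Il27ra, which pairs with gp130 to bind IL-27, was at 1861, 1625 and 1692 for WT against 1567, 1648 and 1729 for Ikzf4-/-, which overlapped (log2 fold change -0.07, limma adjusted p = 0.668). Of 9 kinase, STAT and adaptor genes, 8 had a row and 0 were called (limma; 1, Grb2, at an unadjusted p under 0.05, and 0 in the authors' deposited table). At a background of 1.77% of genes called, 0 calls is the usual outcome for lists this short. Jak1, the main gp130-associated kinase, had a log2 fold change of 0.03 with a 95% interval from -0.08 to 0.15 (limma adjusted p = 0.791).

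Of 5 pathway inhibitors, all with a row, 2 were called, both lower (2 also in the authors' deposited table). Socs3, which encodes the inhibitor that binds gp130 and JAKs, was at 1001, 546 and 477 for WT against 273, 222 and 277 for Ikzf4-/-. The genotypes did not overlap, and WT replicate 1 stood well above the other WT libraries. The log2 fold change was -1.32 (SE 0.23, limma adjusted p = 0.0258), and -0.99 without WT replicate 1 (limma adjusted p = 0.00343). Its call was lost without WT replicate 2 (0.0506) and without Ikzf4-/- replicates 1, 2 and 3 (0.0681, 0.0785 and 0.0894). Socs1, which encodes a broader JAK inhibitor, had means of 6210 ± 200.6 and 4816 ± 570 (SD, n = 3 each), a fall of log2 -0.37 (limma adjusted p = 0.0375). The Socs1 call was lost without WT replicates 2 and 3 (0.0898 and 0.0522) and Ikzf4-/- replicates 1 and 2 (0.0939 and 0.123). Ptpn6, Ptpn2 and Pias3, which encode phosphatases of this pathway and an inhibitor of STAT3, had log2 fold changes of -0.02, -0.13 and 0.05 and were not called.

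Genes listed as STAT3 targets moved in both directions: of 14, 4 were called lower and 1 higher, with a median log2 fold change of -0.18 (5 called in the authors' deposited table). Bcl3, an NF-kappaB co-regulator, had means of 760.5 ± 305 and 359 ± 26.7 (SD, n = 3 each), a fall of log2 -1.01 (limma adjusted p = 0.0436). WT replicate 1 held 1110 normalized reads of Bcl3, and the other WT libraries 621 and 550.3. Junb, an AP-1 subunit, fell by 0.41, the kinase gene Pim1 by 0.54 and the growth regulator Myc by 0.42 on the log2 scale (limma adjusted p = 0.0319, 0.0436 and 0.0490). The other 9 were not called. Batf (log2 fold change -0.79, limma adjusted p = 0.0634, with no overlap), Il21 (-0.67), Hif1a (-0.27) and Mcl1 (-0.08) were fitted lower. Maf (0.33, limma adjusted p = 0.290, with no overlap), Cebpd (0.17), Fos (0.15), Rora (0.14) and Bcl2l1 (0.03) were fitted higher. Many of these genes are also known to respond to other signals, STAT5 and STAT6 included, so the list is not specific to STAT3.

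These calls too were lost in some fits that left out 1 library, in which the calls over all genes also fell. Over the 6 fits the log2 fold changes ran from -1.21 to -0.70 for Bcl3 and from -0.48 to -0.32 for Junb. Those of Pim1 ran from -0.67 to -0.39 and those of Myc from -0.49 to -0.30. With Ikzf4-/- replicate 3 left out, adjusted p-values from limma were 0.140 for Bcl3, 0.126 for Junb, 0.150 for Pim1 and 0.115 for Myc. Without Ikzf4-/- replicate 1 they were 0.0917, 0.0974, 0.0880 and 0.115 for these genes in the same order. Without WT replicate 2 the 4 genes were at 0.0653, 0.0653, 0.0872 and 0.0615. Without Ikzf4-/- replicate 2, Bcl3 (0.136), Pim1 (0.133) and Myc (0.161) lost theirs. Myc was also not called with equal library totals (0.0518) or a pseudocount of 0.1 (0.0515).

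Of 6 genes of the IL-2 receptor and STAT5, 2 were called, both lower. Il2rb, the beta chain of the IL-2 receptor, fell by 0.37 on the log2 scale (limma adjusted p = 0.0129) and kept its call whichever library was left out. Socs2, a STAT5 target gene, fell by 0.72 (limma adjusted p = 0.0331), and its call was lost without WT replicate 2 (0.0615) and Ikzf4-/- replicates 1 (0.0650), 2 (0.106) and 3 (0.111). Of the 6, 3 were called in the authors' deposited table, Jak3 (adjusted p = 0.000849) beside Il2rb and Socs2. Jak3, the kinase bound to the common gamma chain, was at 18172, 15998 and 15028 for WT against 11701, 13849 and 13482 for Ikzf4-/-, with no overlap (log2 fold change -0.33, limma adjusted p = 0.0588). Il2ra, the alpha chain of the IL-2 receptor, was at 49294, 34168 and 32098 for WT against 29286, 25432 and 27054 for Ikzf4-/-, also with no overlap and with WT replicate 1 far above the rest (log2 fold change -0.47, limma adjusted p = 0.0869). For Il2rg, the common gamma chain, the log2 fold change was 0.04 (limma adjusted p = 0.709). Cish, another STAT5 target, had a log2 fold change of -0.09 with a 95% interval from -0.20 to 0.02 (limma adjusted p = 0.359).

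**Figure D3:**
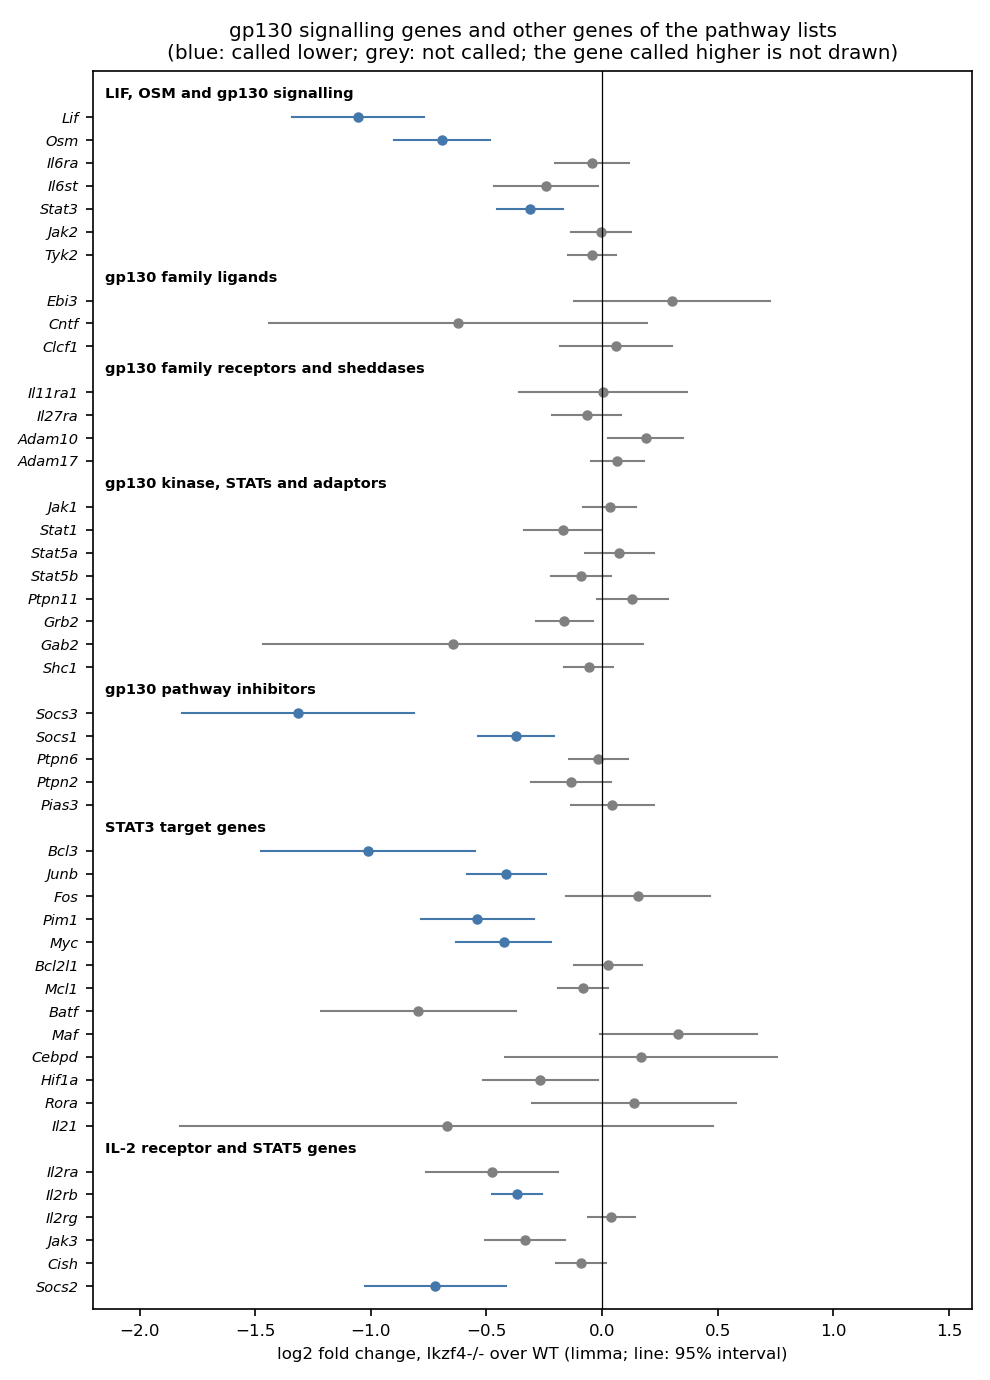
Log2 fold change of Ikzf4-/- over WT (horizontal axis) with its 95% interval for the 7 genes and other pathway genes with a row, by list, with 3 libraries per genotype. Genes called lower are blue (3 members and 8 pathway genes, all left of 0) and those not called grey; the 1 pathway gene called higher is not drawn.

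The genes beside Lif and Osm were examined because the 2 lie next to each other. Within 250000 bp on either side, 22 genes are annotated, and 12 had a row, Lif and Osm included. Of the other 10, 0 were called by limma, 2 were at an unadjusted p under 0.05 (Gatsl3 and Mtmr3) and 1 (Gatsl3) was called in the authors' deposited table. Gatsl3, also named Castor1, encodes an arginine sensor of the mTORC1 pathway and is the next gene with a row upstream of Osm, its start at -18195 bp from that of Osm. Gatsl3 was at 765, 429 and 401 for WT against 332, 335 and 298 for Ikzf4-/-. The genotypes did not overlap, and WT replicate 1 was far above the other WT libraries. The log2 fold change was -0.66 with an SE of 0.20 (limma adjusted p = 0.121), and -0.37 without WT replicate 1. In the authors' deposited table its adjusted p was 0.00562.

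Farther out the fitted changes were smaller or poorly measured. For Mtmr3, a lipid phosphatase gene downstream of Lif, the log2 fold change was -0.22 (limma adjusted p = 0.142, and 0.0228 without WT replicate 3). Tbc1d10a had one of -0.14 (0.314), and Mtfp1 of -0.30 (0.293). Sf3a1, a splicing factor gene, had a log2 fold change of -0.03 with a 95% interval from -0.13 to 0.07, and Rnf215 one of 0.00737. Ccdc157 (0.16) and Sec14l2 (-0.06) were not called. Mir3060 and Hormad2 were at only 6.03 to 42.6 in every library. The 95% intervals of their log2 fold changes ran from -1.27 to 0.94 and from -1.90 to 0.71. Mir3060, a microRNA gene of 83 bp, lies within the span of Rnf215 on the same strand, so reads of its bases cannot be assigned.

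**Figure D4:**
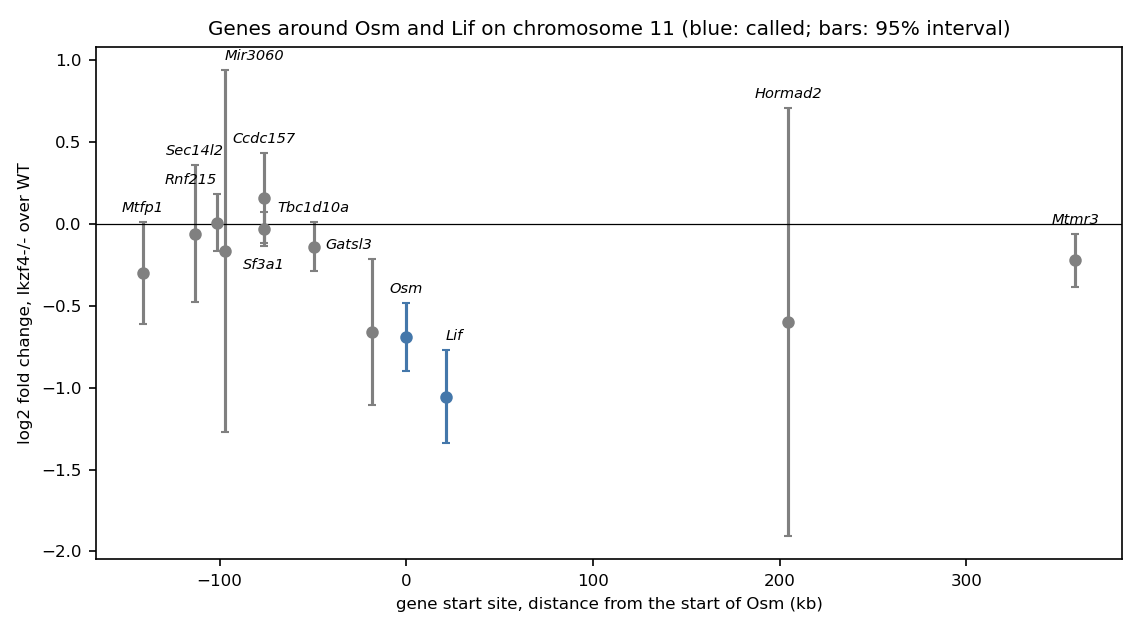
Log2 fold change of Ikzf4-/- over WT with its 95% interval (vertical axis) against the distance of each gene's start from that of Osm (horizontal axis, kb), for the 12 genes with a row around Osm and Lif. Osm and Lif (blue) were called; Gatsl3, beside Osm, had a fitted value of -0.66 and was not.

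Genes whose log2 values followed each cytokine gene most closely over the 6 libraries were found by Pearson correlation among 11593 genes with a mean of at least 50. For Lif these were Blvrb (r = 0.996), Dtx3l (0.995) and Calm3 (0.995), and 157 genes had r over 0.95. For Osm they were Pomgnt1 (0.994), Lrrc59 (0.993) and Ntmt1 (0.990), and 140 genes had r over 0.95. The 6 points share libraries and genotype, so a gene lower in Ikzf4-/- libraries can score high through that difference. These values are a description. The changes of these genes were smaller than those of the cytokine genes, with log2 fold changes from -0.42 for Blvrb (limma adjusted p = 0.191) to -0.07 for Pomgnt1 (0.529). Dtx3l (-0.35, 0.0372) and Lrrc59 (-0.19, 0.0490) were called. Dtx3l was called in 1 of the 6 fits that left out 1 library, without WT replicate 3, and Lrrc59 in 0.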

How the data were processed

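Total RNA of 6 libraries, 3 WT and 3 Ikzf4-/-, was grouped and numbered from the labels. The deposited table gives 1 signal per gene and library, read here as a normalized read count because 100% of each library's values lay within 0.1 step of a whole multiple of 1 step. The submitters' processing notes name Trimmomatic 0.36, STAR 2.5.2b, DESeq2 and GRCm38 (mm10). The order of these steps, the counting tool and whether strand was used are not given in the sources used here. The authors' log2 fold changes and p-values were deposited in the same table (2019 adjusted p-values missing). The lowest implied read sum of a gene was 61.

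Genotype was fitted to log2(value + 1) with limma 3.58.1 (variance trend, two-sided) in R 4.3.3 for the 14864 genes with a mean of at least 10 (4 left out), and p-values were adjusted over all of them by Benjamini-Hochberg. Adding 1 understates the fold change of low genes. No count test was run, because 1 step was so close to 1 in Ikzf4-/- replicates 1 and 3 that recovered read counts were not accepted as certain there. Positions and exon lengths come from GENCODE M21, matched by identifier for 14831 genes, and promoters from RefSeq (GRCm38.p6). The procedure was tested on simulated data with the same dispersion for every gene and no library that stood apart. That test therefore does not cover genes with a wider spread or a library such as WT replicate 1.

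The members and gene lists were chosen with earlier results of these data known. Genes named by rule were Ikzf4, the members, called pathway genes, Il27ra, Socs3, Socs1, the neighbours of Lif and Osm and the 3 genes most correlated with each cytokine gene; others were chosen after their values were seen. Alternatives were other scalings, filters, pseudocounts and weights, a replicate block, each library left out, an adjusted p under 0.01 and the authors' calls. Some genes of the lists are counted but not reported singly here.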

Additional observations from a re-analysis of the deposited data

How the results depend on the processing

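Lif, Osm and Stat3 kept their direction and call under the 9 refits on all libraries (quantile, upper quartile and equal-total scaling, unfiltered genes, at least 10 per library, a pseudocount of 0.1 or 10, the replicate block, array weights) and in the authors' deposited table, with log2 fold changes from -1.05 to -0.98, -0.70 to -0.65 and -0.31 to -0.26. An adjusted p under 0.01 left 1 member called (Lif), 16 genes in all and 0 pathway genes, by construction. Without 1 library the count of called members ran from 1 to 3, that of pathway genes from 1 to 12, that of neighbourhood genes from 0 to 1 and that of all genes from 20 (without Ikzf4-/- replicate 3) to 523 (without WT replicate 3), against 263. The other counts without 1 library were 269 (WT replicate 1), 75 (WT replicate 2), 48 (Ikzf4-/- replicate 1) and 112 (Ikzf4-/- replicate 2). Genes called higher made up 32.3% of the 263, 42.8% with equal library totals and 18.75% without Ikzf4-/- replicate 1.

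The replicate block gave 754 called genes, 3 members, 13 pathway genes and 1 neighbourhood gene (Gatsl3, 0.0410), and for the ratio of Lif to Osm, lower in Ikzf4-/- in all 3 same-numbered pairs, an exact p of 0.25, the smallest that 3 pairs allow. Libraries with the same number correlated at 0.145, 0.0122 and 0.142 in their deviations from the genotype means. Replicates 1 and 3 matched their own number best and replicate 2 did not. No pairing was assumed in the main fit, because the labels do not say that replicate numbers pair libraries. Array weights gave 482 called genes. In the authors' deposited table there were 815 called genes, 1 of them in the neighbourhood. For these the cause was not tested.

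Reversed signs were limited to genes that were not called. Jak2 was at 0.0335 with quantile scaling, 0.0224 with equal totals and 0.0233 with array weights, and from -0.0471 to 0.0647 without 1 library. Rnf215 was at -0.000801 with array weights and from -0.0304 to 0.0302 without 1 library. Without 1 library, Il6ra ran from -0.12 to 0.00876, Sec14l2 from -0.185 to 0.0725 and Mir3060 from -0.47 to 0.31. The log2 difference of the ratio of Lif to Osm ran from -0.55 to -0.26. Mir3060 and Hormad2 are limited by their low values.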

Other observations

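The make-up of the gp130-family ligand transcripts was examined after the values were seen. Per kilobase of exon, Lif made up 82.5%, 82.1% and 77.8% of the summed level of the 5 ligand genes with a row (Lif, Osm, Clcf1, Ebi3 and Cntf) in WT replicates 1 to 3, against 65.8%, 76.1% and 70.8% for Ikzf4-/-. Every WT library was above every Ikzf4-/- library (two-sided exact permutation p = 0.10, the smallest that 3 against 3 allows). Clcf1 took 3.49% to 5.69% of that sum in WT and 7.08% to 10.5% in Ikzf4-/- cells, and Ebi3 2.82% to 4.31% and 6.39% to 10.1%, also without overlap (p = 0.10 each in the same exact permutation test). The share of Osm overlapped, at 9.67% to 11.6% and 9.77% to 13.2% (exact permutation p = 0.30). A share rises when another falls, and neither Clcf1 nor Ebi3 was called on its own level.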
